A study of Mus musculus with 6 samples.

Results

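Ribosome biogenesis was followed through 40 genes, chosen by name as factors of rRNA transcription, rRNA modification and subunit assembly or as structural proteins of the nucleolus. They are 40 of the 54532 genes in the deposited table. The RNA-seq compared LSKs between 3 control libraries (CTRL, Myh9fl/fl;no cre) and 3 libraries that the study calls *Myh9*-deficient (cKO, Myh9fl/fl;Mx1-cre). LSKs are the lineage-negative, Sca1-positive and c-Kit-positive bone marrow cells that hold hematopoietic stem and progenitor cells. All mice were C57BL/6, carried *Myh9* with loxP sites around exon 1 and received poly I:C at 5 mg/kg, in 2 injections by the sample descriptions and 3 by the study's methods. Injection started at 5 to 6 weeks of age, and 100000 LSKs were sorted for a library 4 days after the first injection. Mx1-Cre is switched on by interferon and is not restricted to blood cells, and only the cKO mice carried Cre, so that the effect of Cre and that of the deletion cannot be told apart. The study states that 3 independent sets of LSKs were used, but the number of mice behind each library was not given in the sources used here. The p-values measure the spread between these libraries, which may be technical.

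Ribosomes are assembled mainly in the nucleolus. RNA polymerase I (Pol I) copies the rDNA repeats into a long precursor, small nucleolar ribonucleoproteins (snoRNPs) guide its chemical modification, and large assemblies of processing factors cut it and fold it into the small and the large subunit. Hematopoietic stem cells are known for a low rate of protein synthesis, and inherited defects of several of these factors cause bone marrow failure.

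The libraries held 17571544 to 19894562 reads on genes, and those of 1 group were more alike (Pearson's r across genes 0.991 to 0.993) than those of different groups (0.974 to 0.977). *Myh9* (ENSMUSG00000022443) was 23.0, 22.6 and 22.0 FPKM (fragments relative to the length of the gene and the size of the library) in control and 18.4, 19.96 and 17.7 FPKM in cKO LSKs, a log2 difference of -0.26 (SE 0.0487, limma adjusted p = 0.00642). With trends in GC content and gene length removed from each library, its difference was -0.0993 and was not called (adjusted p = 0.112). The deposited values cover whole genes, so loss of exon 1 itself cannot be read from them. Of the genes that define the sort, *Ly6a* (Sca1) measured 95.4 ± 1.87 FPKM (SD, n = 3) in control and 89.5 ± 3.63 FPKM in cKO LSKs, and *Kit* 23.9 ± 0.454 and 21.5 ± 0.334 FPKM. Among 8 LSK and stem cell markers, *Ly6a* and *Kit* included, 3 rose and 1 fell at an adjusted p under 0.05. Their log2 differences ran from -0.143 to 0.674 (median 0.0885), with 6 positive and 2 negative.

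Most of the ribosome biogenesis genes were slightly higher in cKO than in control LSKs. Of the 39 that reached a mean of 1 FPKM, 33 rose at an adjusted p under 0.05 (84.6%) and 0 fell, in limma on log2(FPKM + 1), where 19.9% of the 11552 genes tested rose and 20.6% fell, 40.5% in all. At an unadjusted p under 0.05, 34 were higher and 1 was lower, and voom on the recovered reads also gave 1 adjusted call lower. The changes were small. The 33 rose by a ratio of group means between 1.08 and 1.34, and 0 of the 39 passed the study's thresholds of more than 2-fold at an unadjusted p under 0.05, which 2.13% of all genes passed. The median log2 difference over the 39 genes was 0.20, against -0.0096 over all genes tested. A log2 difference above 0.25 was found for 13 of the 39 and for 14.1% of all genes. In bulk RNA, fewer cells of a type and less RNA per cell cannot be told apart.

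The 3 cKO libraries stood apart from the 3 control libraries for 35 of these 39 genes (89.7%), with cKO higher each time, while 25.5% of all genes stood apart in that direction. The median gene lay at -0.00199, -0.0123 and 0.0111 from the control mean, on the log2 scale, in the control libraries and at 0.209, 0.220 and 0.206 in the cKO libraries. No single cKO library carried the difference. The 40 genes together took 0.857% ± 0.00101 (SD, n = 3) of the reads on genes in control and 1.02% ± 0.00208 in cKO LSKs. Without *Npm1*, the most abundant of them, the share was 0.677% to 0.679% in control and 0.817% to 0.819% in cKO LSKs. The genes are well expressed and vary little, with a median level of 38.6 FPKM and a median SD between replicates of 0.0365 on the log2 scale, against 7.57 FPKM and 0.0704 over all genes tested. The part of this precision in the count of called genes was not tested. Their median length (4099 bases) and GC content (50.3%) were near those of all genes tested (3692.5 bases and 50%), and across those genes the log2 difference had a Pearson's r of -0.25 with log2 gene length.

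**Figure D1:**
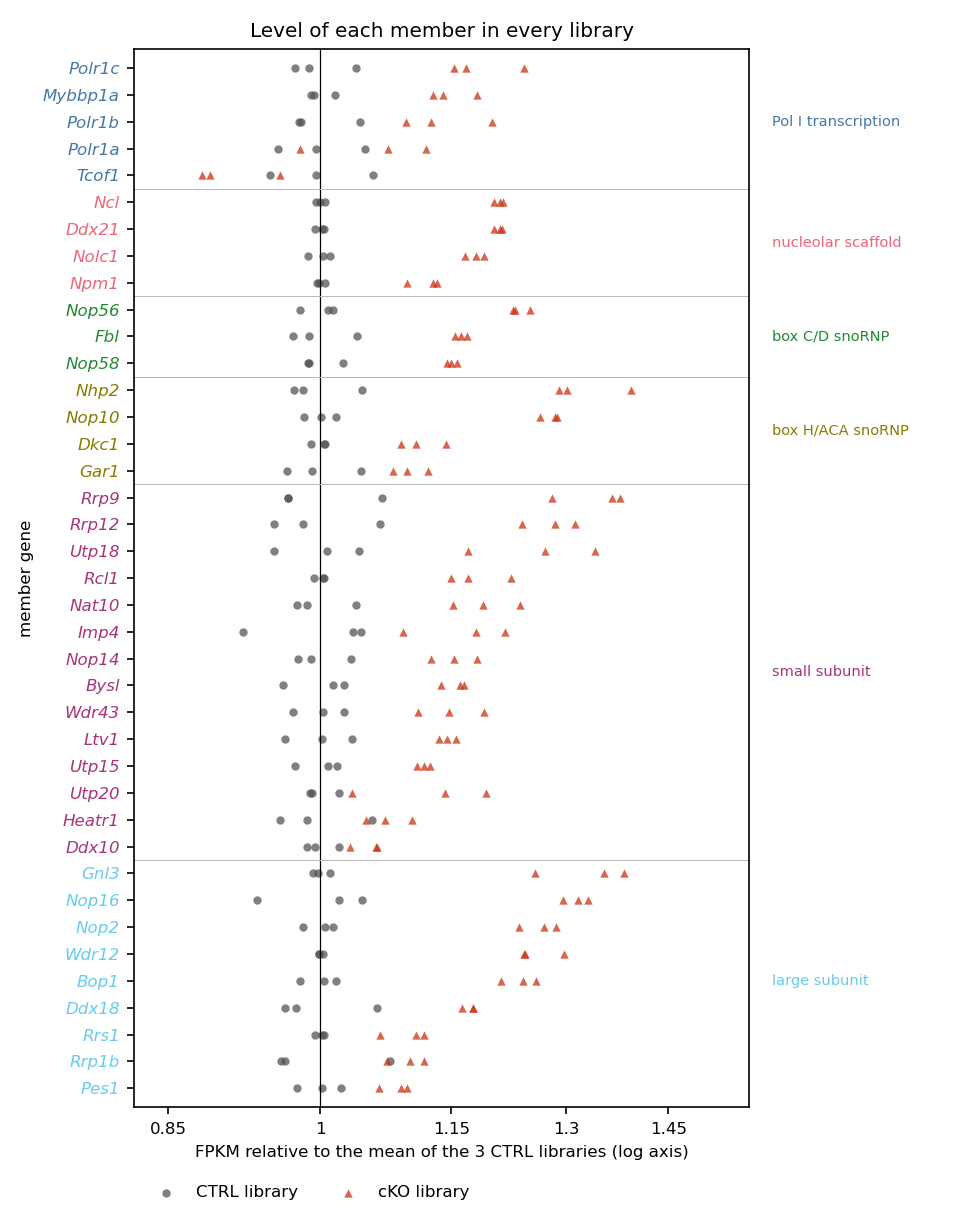
FPKM of 39 ribosome biogenesis genes in each library, divided by the gene's mean over the 3 control libraries (horizontal log axis), with control libraries as grey circles and cKO libraries as red triangles and genes grouped by role. For 35 genes all cKO libraries lie to the right of all control libraries, and for *Tcof1*, *Polr1a*, *Heatr1* and *Rrp1b* the groups overlap.

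Among the genes of rDNA transcription, 3 of 5 rose and 0 fell, with a median log2 difference of 0.175. *Polr1c*, a subunit shared by Pol I and Pol III, was 47.6, 48.3 and 50.8 FPKM in control and 56.4, 60.8 and 57.2 FPKM in cKO LSKs, a rise of 0.24 on the log2 scale (SE 0.0404, adjusted p = 0.00388). *Mybbp1a*, a nucleolar protein that binds Myb and restrains rRNA synthesis, was 71.9, 73.6 and 71.7 FPKM in control and 82.6, 81.7 and 85.6 FPKM in cKO LSKs (log2 difference 0.20, adjusted p = 0.00203). The groups were apart for both genes. *Polr1b*, the second largest Pol I subunit, was 10.9, 11.7 and 10.9 FPKM in control and 13.4, 12.6 and 12.2 FPKM in cKO LSKs, a rise of 0.18 (adjusted p = 0.0245). This call was lost without CTRL replicate 1 (0.16, adjusted p = 0.0785), CTRL replicate 3 (0.16, adjusted p = 0.0742) or cKO replicate 1 (0.14, adjusted p = 0.0675).

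The other 2 genes missed the threshold. *Polr1a*, which encodes the catalytic subunit, was 5.73, 6.03 and 5.50 FPKM in control and 5.63, 6.19 and 6.44 FPKM in cKO LSKs, with a log2 difference of 0.07 (95% interval -0.07 to 0.21, adjusted p = 0.395). It was called higher with GC and length trends removed (0.193, adjusted p = 0.0354). *Tcof1*, treacle, a cofactor of rDNA transcription, was 26.8, 25.2 and 24.0 FPKM in control and 24.3, 22.5 and 22.4 FPKM in cKO LSKs. Its log2 difference of -0.13 (SE 0.0514, 95% interval -0.25 to -0.0087, adjusted p = 0.0841) was the only negative one among the 39 genes, and 1 cKO library lay within the control range. *Tcof1* passed an adjusted p of 0.05 in voom on the recovered reads (-0.12, adjusted p = 0.0446) and was at -0.0433 with GC and length trends removed (adjusted p = 0.521).

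All 4 nucleolar scaffold and chaperone genes rose, with a median of 0.25. *Npm1* (chr11:33152287-33163206, minus strand, GRCm38), nucleophosmin, was the most abundant of the 40 genes, with 678, 673 and 673 FPKM in control and 761, 740 and 764 FPKM in cKO LSKs. The groups were apart, and the log2 difference was 0.16 (SE 0.0222, adjusted p = 0.0018), or 11.9% of the mean. *Npm1* has near copies elsewhere in the mouse genome, and how reads that fit several places were counted is not given in the sources used here. With quantile normalization its difference was 0.0637 (adjusted p = 0.0359). *Ncl* (chr1:86344719-86359400, minus strand), nucleolin, was 130, 129 and 129 FPKM in control and 156, 157 and 157 FPKM in cKO LSKs. The spread within each group was under 1 FPKM (SD 0.627 and 0.724) for a difference of 0.27 (SE 0.0207, adjusted p = 1.59e-04). *Ddx21*, an RNA helicase that links Pol I transcription and rRNA processing, was 50.8, 50.3 and 50.6 FPKM in control and 60.9, 61.3 and 61.4 FPKM in cKO LSKs (0.27, adjusted p = 2.6e-04). *Nolc1*, a phosphoprotein that chaperones snoRNPs, was 51.5, 51.1 and 50.3 FPKM in control and 60.7, 59.5 and 60.2 FPKM in cKO LSKs (0.23, adjusted p = 6.04e-04). In these 4 genes every cKO library was above every control library.

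The box C/D snoRNP places methyl groups on the ribose of rRNA, and its 3 listed proteins all rose. *Fbl* (chr7:28169710-28179269, plus strand), fibrillarin, the methyltransferase itself, was 111, 109 and 116 FPKM in control and 130, 131 and 129 FPKM in cKO LSKs (0.22, adjusted p = 0.00217). *Nop56*, a core protein, was 94.8, 98.2 and 97.7 FPKM in control and 121, 119 and 119 FPKM in cKO LSKs (0.30, adjusted p = 2.16e-04). Its partner *Nop58* was 24.0, 24.0 and 24.9 FPKM in control and 28.1, 27.8 and 27.9 FPKM in cKO LSKs (0.20, adjusted p = 0.00252). The groups were apart in all 3 genes.

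The box H/ACA snoRNP turns uridine of rRNA into pseudouridine, and its proteins are also part of telomerase. All 4 genes rose, with estimates from 0.14 to 0.41. *Nhp2* (chr11:51619735-51623714, plus strand), a small RNA-binding core protein, was 229, 231 and 246 FPKM in control and 304, 328 and 306 FPKM in cKO LSKs, a rise of 0.41 (SE 0.0416, adjusted p = 5.28e-04) or 32.9% of the mean. *Nop10* (chr2:112261926-112263269, plus strand), the smallest core protein, was 203, 200 and 207 FPKM in control and 262, 257 and 261 FPKM in cKO LSKs, a rise of 0.35 (SE 0.0233, adjusted p = 8.68e-05) or 27.9%. These were the most abundant of the 40 genes after *Npm1*. *Dkc1* (chrX:75095854-75109777, plus strand), dyskerin, the pseudouridine synthase, was 36.6, 36.1 and 36.7 FPKM in control and 39.8, 41.7 and 40.4 FPKM in cKO LSKs, a rise of 0.15 (adjusted p = 0.00679). *Gar1* was 77.5, 75.4 and 81.7 FPKM in control and 87.8, 85.8 and 84.5 FPKM in cKO LSKs, a rise of 0.14 (adjusted p = 0.0223). The call of *Gar1* was lost without CTRL replicate 1 (0.13, adjusted p = 0.0708), CTRL replicate 2 (0.11, adjusted p = 0.0679), cKO replicate 1 (0.12, adjusted p = 0.0706) or cKO replicate 2 (0.14, adjusted p = 0.0501). With GC and length trends removed *Gar1* was at 0.0633 (adjusted p = 0.143).

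Of the 14 small subunit genes, which act mostly in the processome that forms on the 5' part of the precursor, 11 rose and 0 fell (median 0.20). *Rrp9* (chr9:106475963-106485424, plus strand), which binds the U3 snoRNA, was 29.8, 26.9 and 26.9 FPKM in control and 38.1, 35.7 and 38.4 FPKM in cKO LSKs. The rise of 0.41 (SE 0.0503, adjusted p = 0.00115) was the largest of the 39 genes by its estimate, level with that of *Nhp2*. *Rrp12*, which serves export and maturation of the subunits, was 12.9, 12.5 and 14.03 FPKM in control and 16.3, 16.9 and 17.3 FPKM in cKO LSKs (0.33, adjusted p = 0.00233). *Utp18*, a processome protein that recruits the exosome in yeast, was 19.4, 20.6 and 21.3 FPKM in control and 25.98, 27.4 and 23.9 FPKM in cKO LSKs (0.32, adjusted p = 0.00534). In all 3 the lowest cKO library was above the highest control library.

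*Rcl1*, an endonuclease-like processome protein, was 56.2, 55.7 and 56.2 FPKM in control and 64.4, 65.6 and 68.7 FPKM in cKO LSKs (0.24, adjusted p = 0.00148). *Nat10*, the acetyltransferase of 18S rRNA, was 12.2, 12.3 and 12.9 FPKM in control and 14.4, 14.8 and 15.4 FPKM in cKO LSKs (0.24, adjusted p = 0.00503). *Nop14*, an early processome factor, was 23.3, 23.0 and 24.3 FPKM in control and 27.1, 27.8 and 26.5 FPKM in cKO LSKs (0.20, adjusted p = 0.00515). These 3 rose by similar amounts, with the groups apart. *Bysl*, bystin, a late assembly factor, was 16.1, 15.1 and 15.9 FPKM in control and 18.3, 18.3 and 17.9 FPKM in cKO LSKs (0.20, adjusted p = 0.00594). *Wdr43*, a t-UTP protein that ties transcription to processing, was 43.0, 40.7 and 42.0 FPKM in control and 49.9, 46.5 and 48.1 FPKM in cKO LSKs (0.20, adjusted p = 0.00612). *Ltv1*, which holds the late small subunit until its release, was 31.9, 30.7 and 33.0 FPKM in control and 36.5, 36.8 and 36.2 FPKM in cKO LSKs (0.19, adjusted p = 0.00505). Again every cKO library was above every control library.

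Smaller or less certain differences were seen in the other 5 small subunit genes. *Imp4*, a U3 snoRNP protein, was 10.4, 11.7 and 11.6 FPKM in control and 13.7, 13.3 and 12.3 FPKM in cKO LSKs, with the widest error of the group (0.20, SE 0.0613, adjusted p = 0.0371). Its call was lost when any library but cKO replicate 3 was left out: without CTRL replicates 1, 2 and 3 the log2 difference was 0.15, 0.23 and 0.23 (adjusted p = 0.0925, 0.0515 and 0.0582), and without cKO replicates 1 and 2 it was 0.17 and 0.19 (adjusted p = 0.109 and 0.0906). No filter, TPM and quantile normalization also lost the call of *Imp4* (adjusted p = 0.0816, 0.0501 and 0.0559), which held in 7 of 16 alternatives. *Utp15*, a t-UTP protein, was 10.01, 9.58 and 9.92 FPKM in control and 10.99, 11.1 and 10.9 FPKM in cKO LSKs (0.15, adjusted p = 0.0164), and lost its call without CTRL replicate 2 (0.13, adjusted p = 0.0579). The last 3 genes missed the threshold. *Utp20* was 3.67, 3.67 and 3.78 FPKM in control and 4.42, 3.83 and 4.24 FPKM in cKO LSKs (95% interval -0.0066 to 0.27, adjusted p = 0.116). It passed without cKO replicate 2 (0.18, adjusted p = 0.0498) and with GC and length trends removed (0.218, adjusted p = 0.0308). *Heatr1* had an interval of -0.0148 to 0.20 (adjusted p = 0.146) and *Ddx10*, an RNA helicase, one of -0.00496 to 0.14 (adjusted p = 0.122), which leave room for differences as large as those of several called genes. With GC and length trends removed *Heatr1* was called (0.169, adjusted p = 0.0259).

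Of the 10 large subunit genes, 9 were tested, and 8 rose and 0 fell (median 0.30). *Gnl3* (chr14:31012433-31019152, minus strand), nucleostemin, a GTP-binding protein abundant in stem cells, was 30.6, 30.0 and 30.2 FPKM in control and 41.0, 38.1 and 41.9 FPKM in cKO LSKs, a rise of 0.40 (SE 0.0401, adjusted p = 4.9e-04). *Nop16* (chr13:54584185-54590090, minus strand), an assembly factor, was 54.3, 59.2 and 60.7 FPKM in control and 75.2, 77.2 and 76.4 FPKM in cKO LSKs, a rise of 0.39 (SE 0.0439, adjusted p = 7.97e-04). Both rose by about as much as *Rrp9* and *Nhp2*, and the groups were far apart. *Nop2*, the methyltransferase that modifies a cytosine of 28S rRNA, was 51.2, 50.8 and 49.6 FPKM in control and 65.0, 64.2 and 62.5 FPKM in cKO LSKs (0.33, adjusted p = 2.43e-04). *Ddx18*, an RNA helicase, was 44.6, 44.1 and 48.6 FPKM in control and 53.9, 53.2 and 53.9 FPKM in cKO LSKs (0.23, adjusted p = 0.00559). *Rrs1*, which brings the 5S particle to the subunit, was 61.5, 61.6 and 61.0 FPKM in control and 67.97, 68.5 and 65.4 FPKM in cKO LSKs (0.13, adjusted p = 0.00975). Removing GC and length trends left *Rrs1* at 0.0751 (adjusted p = 0.0595).

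*Bop1*, *Pes1* and *Wdr12* encode the PeBoW complex, which is needed to process the 28S and 5.8S rRNA. *Bop1* was 53.7, 51.7 and 53.1 FPKM in control and 66.5, 65.6 and 64.1 FPKM in cKO LSKs (0.30, adjusted p = 3.75e-04). *Wdr12* was 10.4, 10.4 and 10.5 FPKM in control and 13.6, 13.0 and 13.0 FPKM in cKO LSKs (0.31, adjusted p = 7.52e-04). The estimate for *Pes1* was smaller. *Pes1* was 60.8, 62.5 and 63.7 FPKM in control and 66.4, 67.9 and 68.4 FPKM in cKO LSKs (0.11, adjusted p = 0.0188), and its call was lost without CTRL replicate 1 (0.097, adjusted p = 0.0649), CTRL replicate 2 (0.12, adjusted p = 0.0539) or cKO replicate 3 (0.11, adjusted p = 0.0581). With quantile normalization *Pes1* was at 0.0777 (adjusted p = 0.0584). *Rrp1b* was 10.1, 8.99 and 9.03 FPKM in control and 10.5, 10.3 and 10.1 FPKM in cKO LSKs, and was not called (0.12, adjusted p = 0.101). CTRL replicate 1 was the library that met the cKO range, and without it the gene was called (0.17, adjusted p = 0.0304), as it was with GC and length trends removed (0.221, adjusted p = 0.0145).

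*Wdr74*, a late large subunit factor, was the one gene under the filter, with 1 read over all 6 libraries, in CTRL replicate 1. By the positions in the deposited table, its locus (chr19:8735827-8740624, plus strand) lies for 99.71% of its span inside another gene of the same strand. That gene, *Gm45736*, is itself listed at 0. In the exons of GENCODE M21, 0% of the bases of *Wdr74* were found shared with another gene. How reads in overlapping genes were counted is not given in the sources used here, so the value is not evidence that *Wdr74* was silent.

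**Figure D2:**
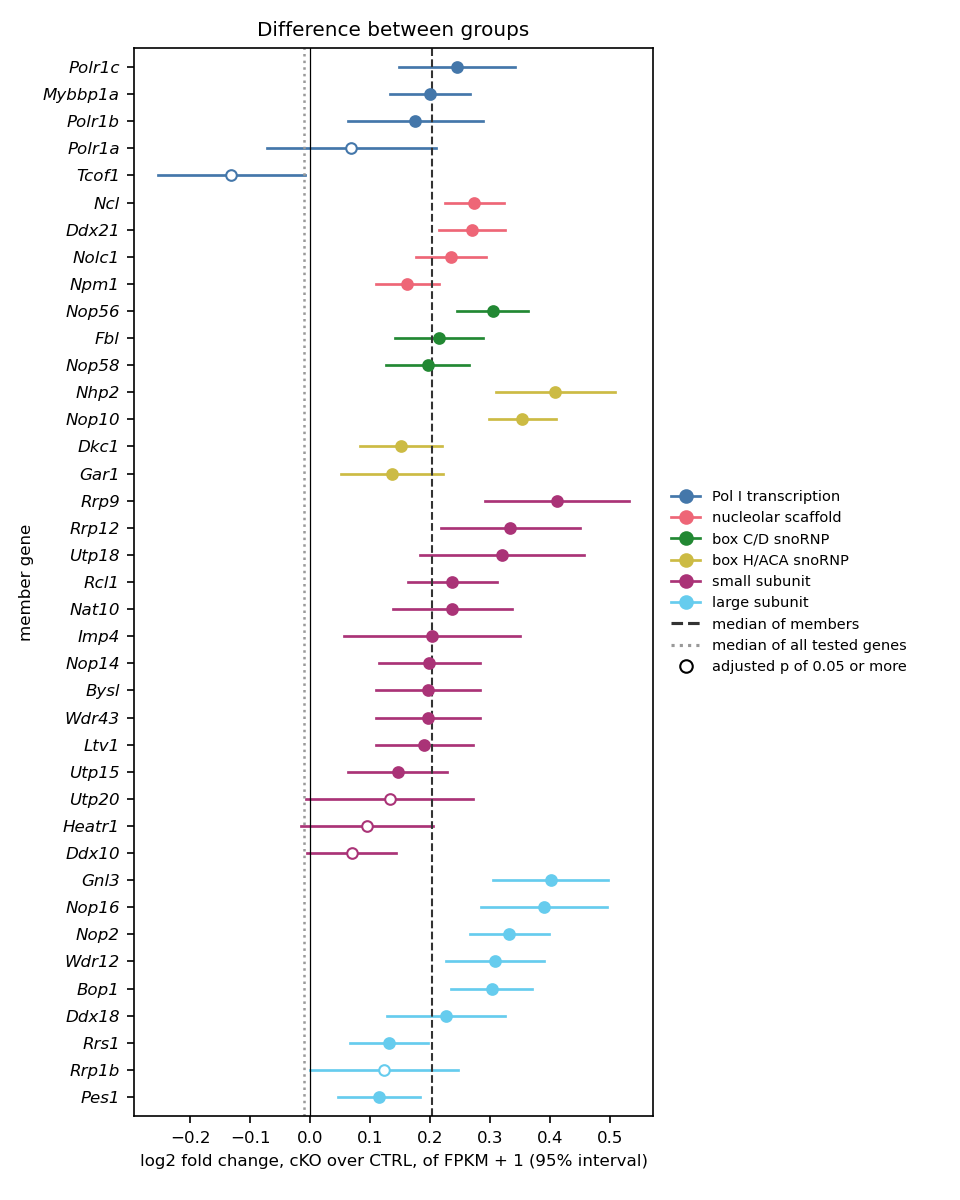
Log2 difference of FPKM + 1 between cKO and control LSKs (horizontal axis) for the 39 tested genes, with the 95% interval of limma as a bar and the role of the gene as colour; open circles have an adjusted p of 0.05 or more. The medians of the 39 genes (0.20, dashed) and of all genes tested (-0.0096, dotted) are marked, and *Tcof1* is the one gene left of zero.

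Proteins of one complex act together in fixed amounts, so ratios of FPKM between their genes were compared within each library, in 15 pairs. With 3 libraries against 3, the exact permutation test (two-sided) cannot go below p = 0.1, or 0.188 after adjustment over the 15 pairs, and no pair can pass 0.05. The groups did not overlap in 8 of the 15 pairs, near the 51.2% of all pairs of tested genes above 0 in every library whose ratio did not overlap, so the count is no result about these complexes. Among the 8, the ratio of *Nhp2* to *Dkc1* was 6.25, 6.402 and 6.71 in control and 7.64, 7.87 and 7.58 in cKO LSKs, a log2 difference of 0.255, and that of *Nop10* to *Dkc1* was 5.55, 5.53 and 5.63 in control and 6.58, 6.16 and 6.46 in cKO LSKs. In both pairs the mRNA ratio of every cKO library was above that of every control library. The ratio of *Nhp2* to *Nop10* overlapped between groups, with 1.13, 1.16 and 1.19 in control and 1.16, 1.28 and 1.17 in cKO LSKs (exact permutation p = 0.4). *Dkc1* and *Gar1* likewise overlapped (exact permutation p = 0.6). With GC and length trends removed, the log2 differences between groups were 0.313 for *Nhp2*, 0.259 for *Nop10*, 0.153 for *Dkc1* and 0.0633 for *Gar1*, which makes the gap of *Nhp2* and *Nop10* to *Dkc1* smaller.

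In PeBoW, the ratio of *Bop1* to *Pes1* was 0.883, 0.828 and 0.832 in control and 1.00, 0.966 and 0.937 in cKO LSKs, and that of *Wdr12* to *Pes1* was 0.172, 0.167 and 0.164 in control and 0.204, 0.191 and 0.190 in cKO LSKs. The ratio of *Bop1* to *Wdr12* overlapped between groups (exact permutation p = 0.2). *Nop56* was higher relative to *Fbl* and to *Nop58* in every cKO library, by 0.09 and 0.10 on the log2 scale, and *Fbl* to *Nop58* overlapped. All 3 pairs of Pol I subunits overlapped.

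**Figure D3:**
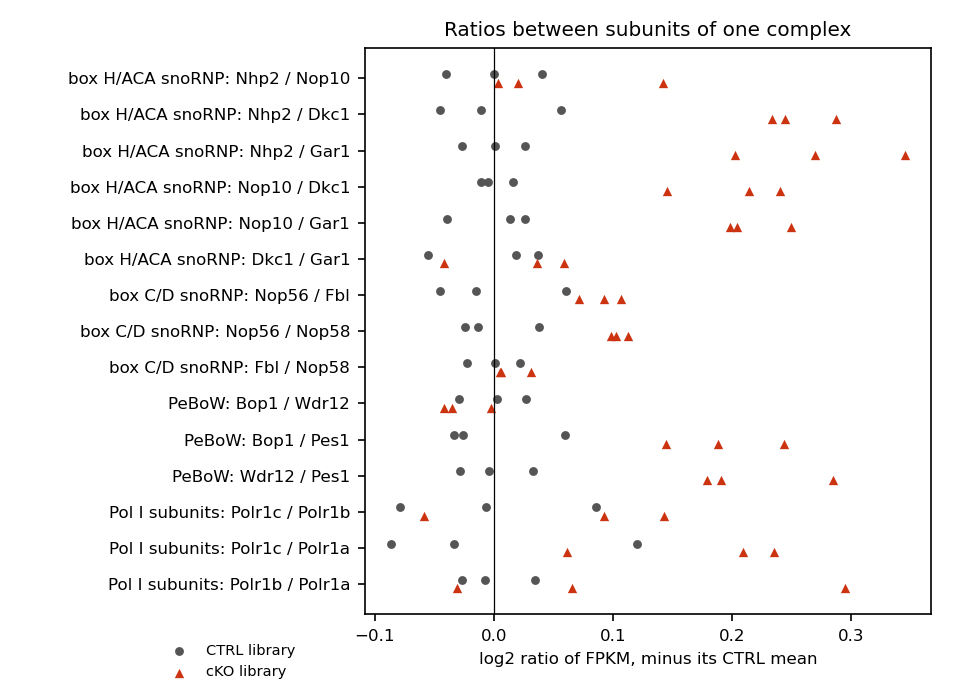
Log2 ratio of FPKM between genes of one complex in each library, minus the mean of the 3 control libraries (horizontal axis), for 15 pairs; control libraries are grey circles and cKO libraries red triangles. In 8 pairs the cKO libraries lie to the right of all control libraries, 4 of them pairs of *Nhp2* or *Nop10* with *Dkc1* or *Gar1*.

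Several of these genes carry snoRNA genes in their introns. In GENCODE M21, 6 of them (*Dkc1*, *Gnl3*, *Ncl*, *Nop56*, *Nop58* and *Wdr43*) hold 19 snoRNA genes. All 6 hosts rose, with a median log2 difference of 0.235, and 27 of the 33 other tested genes rose, with a median of 0.20. Exons of 16 of the genes share bases with a gene on the opposite strand, at most 9.37% of the exonic bases, in *Bysl* with *Ccnd3*, and reads of such partners cannot be told apart where strand was not counted.

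Promoters of ribosome biogenesis genes are known to hold the E-box CACGTG, bound by MYC and MAX among others, and sites of ETS factors. Promoter sequences of RefSeq (GRCm38.p6, 250 bases before to 50 after the start) were given for 34 of the 40 genes, 33 of them tested. CACGTG, which reads the same on both strands, was in 8 of the 33 (24.2%), in 12.4% of the 8192 promoters of tested genes and in 8.09% of all 27025 promoters. CCGGAAG, searched on both strands, was in 9 of 33 (27.3%), against 22.5% and 9.93%. Both motifs were chosen after the genes' values were known. The bases upstream of the start of *Imp4* (chr1:34439579-34439828, plus strand) and *Nop2* (chr6:125131633-125131882, plus strand), and the bases around the E-box of *Utp18* (chr11:93885769-93885798, minus strand), show where the motifs lie, with CACGTG and CCGGAAG in capitals and each sequence written 5' to 3' on the gene's strand.
Imp4: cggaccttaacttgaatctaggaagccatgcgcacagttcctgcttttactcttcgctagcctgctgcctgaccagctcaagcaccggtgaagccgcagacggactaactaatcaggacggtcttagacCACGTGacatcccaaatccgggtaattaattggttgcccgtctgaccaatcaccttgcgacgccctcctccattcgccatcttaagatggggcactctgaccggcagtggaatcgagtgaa
Nop2: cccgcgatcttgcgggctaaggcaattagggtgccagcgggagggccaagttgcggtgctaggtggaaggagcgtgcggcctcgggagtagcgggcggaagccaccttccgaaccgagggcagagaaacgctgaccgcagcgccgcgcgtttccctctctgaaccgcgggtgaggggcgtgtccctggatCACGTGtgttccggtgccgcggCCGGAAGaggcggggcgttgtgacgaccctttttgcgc
Utp18: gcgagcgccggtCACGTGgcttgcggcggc
The E-box starts 121 bases before the RefSeq start of *Imp4*, 60 before that of *Nop2* and 20 before that of *Utp18*. CCGGAAG lies 38 bases before the start of *Nop2* and 106 before that of *Utp18*, outside the bases printed. In *Pes1*, *Wdr43*, *Ltv1*, *Utp20* and *Mybbp1a* the E-box lies after the start, by 2, 17, 28, 37 and 40 bases. The promoter sequences of 26 of the 34 genes ran into a GENCODE M21 transcript of the gene, and those of *Imp4* and *Nop2* did not. Of the 8 genes with CACGTG (*Imp4*, *Ltv1*, *Mybbp1a*, *Nop2*, *Pes1*, *Utp18*, *Utp20* and *Wdr43*), 7 rose, with a median of 0.20, and of the 25 without it 21 rose, with a median of 0.235. The log2 differences of these genes overlapped, from 0.11 (*Pes1*) to 0.33 with the E-box and from 0.07 to 0.41 without. *Myc*, the best known driver of these genes, was 111, 109 and 111 FPKM in control and 109, 113 and 109 FPKM in cKO LSKs (0.0039, adjusted p = 0.92). *Mycn*, named here after its value was seen, was 6.24, 5.92 and 6.58 FPKM in control and 8.96, 8.64 and 9.96 FPKM in cKO LSKs (0.49, adjusted p = 0.00138). Of the 9 tested genes of MYC, its partners and its antagonists, 1 rose and 4 fell, with a median of -0.07. The 4 that fell, also named after their values were seen, were *Mxd1* (-0.55), *Mxi1* (-0.41), *Mnt* (-0.40) and *Mxd4* (-0.33), whose proteins bind MAX and are known to repress E-box genes. The part of the MYC family genes in the rise of the ribosome biogenesis genes was not tested.

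A further 113 genes of ribosome biogenesis, from lists with no member in common with the 40, were counted in the same fit. Of the 112 tested, 65 rose (58.0%) and 1 fell, with a median of 0.16. Of 40 small subunit genes 27 rose (median 0.185), led by *Pno1*, the partner of the Nob1 nuclease (0.43, adjusted p = 0.00101), *Utp4* (0.41, adjusted p = 0.00267) and *Emg1*, an 18S rRNA methyltransferase (0.35, adjusted p = 6.99e-04). Of 47 large subunit genes 25 rose (median 0.14), led by *Mrto4*, which prepares the stalk (0.48, adjusted p = 1.69e-04), *Brix1* (0.39, adjusted p = 1.68e-04) and *Lyar* (0.37, adjusted p = 4.11e-04). Of 13 genes of the exosome, which trims the precursor, 9 rose (median 0.22), with *Exosc2*, *Exosc1* and *Mphosph6* at 0.32, 0.30 and 0.26. *Exosc6* was listed at 0 in every library.

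Of 12 other genes of rDNA transcription 4 rose and 1 fell (median 0.14). *Polr1e*, a Pol I subunit, was 10.1, 10.3 and 10.2 FPKM in control and 13.4, 13.3 and 14.3 FPKM in cKO LSKs (0.39, adjusted p = 5.51e-04). *Ubtf*, the factor that opens the rDNA for Pol I, was at 0.15 (adjusted p = 0.0136) and *Taf1d* at 0.16 (adjusted p = 0.0483). *Ttf1*, which ends Pol I transcription, was 3.97, 3.82 and 3.96 FPKM in control and 3.01, 3.15 and 3.49 FPKM in cKO LSKs (-0.22, adjusted p = 0.0242). The calls of *Taf1d* and *Ttf1* each held in only 1 of the 6 fits that left out a library. *Taf1d* stayed under 0.05 without cKO replicate 2 and was at 0.10 to 0.17 without any of the others (adjusted p = 0.0767 to 0.121). *Ttf1* stayed under 0.05 without cKO replicate 3 and was at -0.24 to -0.19 without any of the others (adjusted p = 0.0535 to 0.0738).

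Genes of the ribosomal proteins, the synthetases and the mitochondrial ribosome were counted in the same way. Of 81 cytosolic ribosomal protein genes 22 rose (27.2%) and 1 fell (1.23%), with a median of 0.06, where 19.9% of all genes tested rose and 20.6% fell. The share that rose was near that of all genes, so the count of rises is no result about this list. *Rps18*, which has near copies in the genome, was 340, 337 and 355 FPKM in control and 881, 823 and 886 FPKM in cKO LSKs (1.32, adjusted p = 3.53e-06), and *Rpl4* was at -0.07 (adjusted p = 0.0314), a call that was lost when any 1 of the 6 libraries was left out (-0.0836 to -0.0633, adjusted p = 0.0517 to 0.104). Of 76 mitochondrial ribosomal protein genes 54 rose (71.1%) and 0 fell (median 0.21), with *Mrpl52* at 0.63 (adjusted p = 8.69e-05). Of 20 aminoacyl-tRNA synthetase genes 16 rose (80%) and 0 fell (median 0.19), with *Cars* at 0.35 (adjusted p = 0.00196). The shares of risen genes in the mitochondrial ribosomal protein and synthetase lists were near that of the 40 genes.

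**Figure D4:**
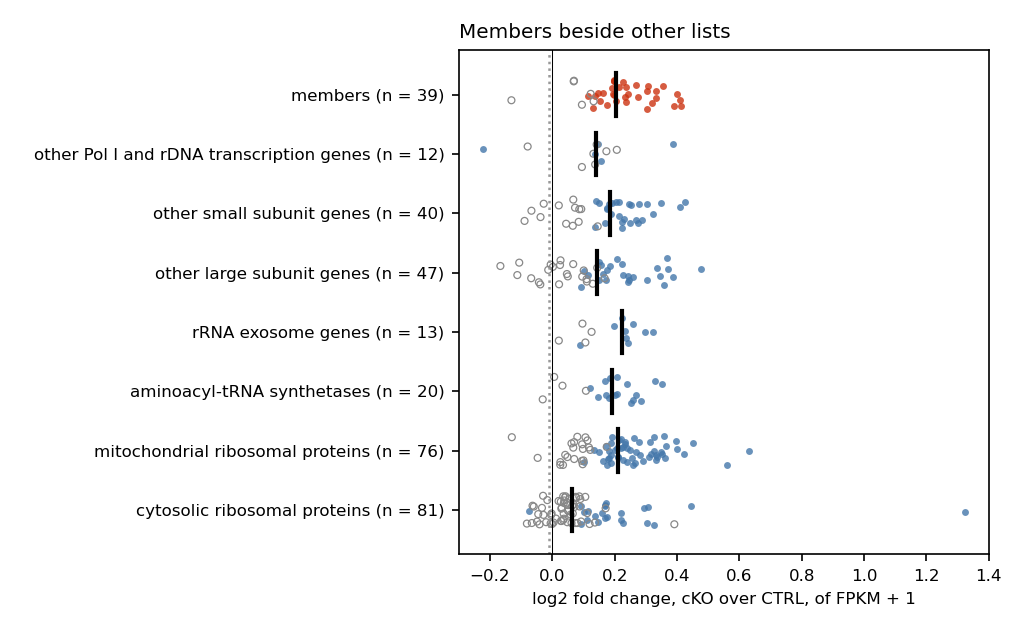
Log2 difference of FPKM + 1 between cKO and control LSKs (horizontal axis) for each gene of the ribosome biogenesis set (red) and of other lists (blue), with open circles for an adjusted p of 0.05 or more, a vertical bar for each list's median and a dotted line for the median of all genes tested. The medians run from 0.06 for cytosolic ribosomal proteins to 0.22 for the rRNA exosome.

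Markers of other cell types moved with the groups. All 11 tested erythroid markers rose (summed level 263 to 267 FPKM in control and 455 to 473 FPKM in cKO LSKs), as did all 6 tested megakaryocyte markers (75.9 to 81.0 and 153 to 158 FPKM) and 6 of 7 mast cell and basophil markers (126 to 137 and 190 to 199 FPKM). Of 12 neutrophil and monocyte markers 11 fell, from 11069 to 11105 FPKM in control to 6146 to 6254 FPKM in cKO LSKs. Of 5 tested B and plasma cell markers 2 rose and 2 fell, with *Ms4a1* and *Pax5* under the filter, and of 2 tested T and NK cell markers 1 rose and 1 fell (352 to 362 and 288 to 295 FPKM). The lineage antibodies of the LSK gate named in the study's methods, against T cell antigens, CD11b, Gr-1, B220 and Ter119, are there to remove the mature forms of these cells. Of 7 genes of such antigens found in the table, 5 were under the filter, among them *Itgam* (CD11b, 1.153 ± 0.297 FPKM in control and 0.707 ± 0.112 FPKM in cKO LSKs). Of the 2 tested, *Ptprc* (CD45, of which B220 is an isoform) fell from 5.87 ± 0.176 to 5.21 ± 0.0847 FPKM (SD, n = 3). The other rose, by 0.544 on the log2 scale. The summed level of the 7 genes was 10.5 to 11.3 FPKM in control and 11.8 to 12.8 FPKM in cKO LSKs. The part of these cell types in the rise of the ribosome biogenesis genes was not tested.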

How the data were processed

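Libraries were made from total RNA (Trizol, Illumina TruSeq, 1 ug) of 3 CTRL and 3 cKO LSK samples. The submitters' processing notes name HISAT2 2.0.5 and mm10; the counting program and strandedness are not given in the sources used here. The authors deposited FPKM, scaled by gene length and library size, with 1 column per library. FPKM times length was a whole multiple of 1 read (tolerance 0.01) for 100% of values, and scaling by the median of ratios was already in them (size factors 1.004). Intervals cover the spread between libraries.

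Testing took genes that averaged 1 FPKM or more, on log2(FPKM + 1) with limma 3.58.1 (R 4.3.3; lmFit, eBayes with a trend, two-sided, Benjamini-Hochberg over 11552 genes), which gave each adjusted p printed unless another fit is named. Fold changes on this scale understate those of low genes. The script was tested on simulated data. Gene lengths are those of the deposited table, which differ from the exonic bases of GENCODE M21 in some members. Gene positions follow GENCODE M21 (54409 of 54532 identifiers matched), and promoter positions follow RefSeq. The 40 genes and all lists were chosen with earlier results of these data known. Every member could be named. The levels in every library are given for the called members, and other lists show up to 3 of their largest called changes in each direction. Motifs and ratios used Python 3.11.15 with pandas 2.3.3 and scipy 1.17.1. The alternatives were a pseudocount of 0.1, no filter, a mean of at least 5 FPKM, median-of-ratios, TPM and quantile scaling, eBayes with no trend, the replicate number as a block, each library left out in turn, voom on the recovered reads and removal of GC and length trends. Sequences came from RefSeq, and protein sequences were not used here. The summed level of B and plasma cell markers is not reported here.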

Additional observations from a re-analysis of the deposited data

How the results depend on the processing

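Over 16 alternatives, 29 to 36 ribosome biogenesis genes were called higher, 27 of the 33 in every one. *Gar1*, *Pes1*, *Rrs1*, *Imp4*, *Polr1b* and *Utp15* lost the call in at least 1. Leaving out 1 library gave 29 to 32, and 0 lower. With the GC and length trends removed 35 were called higher, with *Rrp1b*, *Heatr1*, *Polr1a* and *Utp20* gained and *Gar1* and *Rrs1* lost. The number called lower was 1 in voom on the recovered reads (*Tcof1*), which called 36 higher, with *Rrp1b*, *Heatr1* and *Utp20* gained. The shift of the median of all genes was -0.0277 to 0.0086. The cause of these movements was not tested.

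The median log2 difference was 0.217 with a pseudocount of 0.1, 0.183 with TPM, 0.182 with quantile normalization, 0.236 with voom and 0.232 with GC and length trends removed, and 0.203 to 0.225 without 1 library. Of the other ribosome biogenesis genes, the number called lower was 0 with no filter and with the trends removed, 2 with at least 5 FPKM and with voom, 4 with TPM, 5 with quantile normalization and 0 to 2 without 1 library. The difference of *Myc* turned to -0.0173 with TPM, -0.0284 with quantile normalization, -0.0188 with the trends removed, -0.00599 without CTRL replicate 2 and -0.015 without cKO replicate 2 (-0.015 to 0.0135 over the fits without 1 library), and was not called in any of these.

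The sample titles number the replicates of both groups 1 to 3, but same-numbered libraries did not deviate together (r = -0.005, -0.011 and -0.026). No pairing by number was seen, and these values cannot exclude one. With the number as a replicate block, 31 genes were called higher and 1 lower (*Tcof1*, adjusted p = 0.0382), and *Imp4* and *Polr1b* lost the call (adjusted p = 0.0779 and 0.051).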
